A study of Homo sapiens with 12 samples.

Results

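The aminoacyl tRNA synthetases are the enzymes that load each amino acid onto its tRNA before translation. Their genes were taken as the protein-coding genes whose RefSeq symbol is a letter for the amino acid followed by ARS1 (cytosolic enzyme) or ARS2 (mitochondrial enzyme), together with EPRS1, FARSA and FARSB. By this rule 35 genes are described here, of 23922 genes in the files, 19 for cytosolic and 16 for mitochondrial enzymes. All 35 were measured in every library, at 2.15 FPKM or more (FPKM is a read count scaled for transcript length and library size), and all 35 were tested.

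The 12 RNA libraries were made from cells of H9, a human embryonic stem cell line in wide use, that had been differentiated toward hepatocytes. The 6 groups of 2 libraries each were 30 nM T4, 30 nM T3 and 0.1% DMSO at day 19, and the same 3 treatments at day 7. T3 is triiodothyronine, the thyroid hormone that binds the nuclear receptors most tightly, T4 is thyroxine, which cells convert to T3, and DMSO is the solvent control. The labels call the cells of day 7 hepatoblasts and those of day 19 hepatocytes, and all libraries come from a single line. They do not say whether the replicates were separate cultures, when the hormone was added, or what solvent the hormone-treated cells received, so the spread behind each p-value is that between libraries and could be purely technical.

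Cells use separate synthetase genes for the cytosol and for the mitochondrion, except that KARS1 and GARS1 make the lysyl and glycyl enzymes of both compartments. Several cytosolic enzymes sit in a multi-synthetase complex held together by the scaffold proteins AIMP1, AIMP2 and EEF1E1. Many cytosolic synthetase genes are textbook targets of ATF4, a transcription factor that raises genes of amino acid supply when amino acids run short or protein folding is disturbed.

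The promoter sequences are shown first, and their relation to the levels that follow was not tested. Windows from 250 bases before to 50 bases after the start of transcription were taken from RefSeq (GRCh38.p14), and 30 of the 35 genes had one. LARS1, VARS1, YARS1, AARS2 and VARS2 had no entry. The composite element bound by ATF4 (TGATGNAA, where N is any base, on either strand) was found in 6 of 16 cytosolic promoters (37.5%) and in 1 of 14 mitochondrial promoters (7.14%), against 1.79% of the 12613 promoters of tested protein-coding genes. The 7 matches are printed 5′ to 3′ on the strand of the gene, with the element in capitals:
AARS1 (chr16:70289664-70289715, minus strand): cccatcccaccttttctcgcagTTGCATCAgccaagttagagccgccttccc
CARS1 (chr11:3057396-3057447, minus strand): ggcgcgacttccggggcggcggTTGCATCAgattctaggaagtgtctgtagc
IARS1 (chr9:92293681-92293732, minus strand): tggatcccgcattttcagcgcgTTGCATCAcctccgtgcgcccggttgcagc
MARS1 (chr12:57488042-57488093, plus strand): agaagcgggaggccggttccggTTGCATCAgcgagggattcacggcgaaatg
NARS1 (chr18:57621807-57621844, minus strand): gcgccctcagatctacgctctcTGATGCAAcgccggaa
TARS1 (chr5:33440945-33440994, plus strand): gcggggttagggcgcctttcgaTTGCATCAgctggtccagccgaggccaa
YARS2 (chr12:32756065-32756116, minus strand): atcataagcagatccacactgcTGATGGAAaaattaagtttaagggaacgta

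The 6 cytosolic genes carry the same 8 letters, TTGCATCA or its reverse complement TGATGCAA, and YARS2 carries TGATGGAA. In 5 of these 6 promoters the element lies within 15 bases of the start (its first base at -2 in CARS1, -13 in IARS1, -4 in MARS1, 15 in NARS1 and 3 in TARS1), while in AARS1 it lies at -187. The E-box (CACGTG, a site for MYC among other factors) was in 1 of 16 cytosolic promoters, that of IARS1, and in 3 of 14 mitochondrial ones, those of CARS2, EARS2 and MARS2 (6.25% and 21.43%, against 9.53% of the tested protein-coding genes). The ETS core (CCGGAAG) was in 8 of 16 cytosolic and 6 of 14 mitochondrial promoters, against 16.86% of the tested protein-coding genes. HARS1 and HARS2 lie on opposite strands with overlapping promoter windows, so the same ETS matches count in both classes. The NRF1 site (GCGCANGC) was in 5 of 16 and 5 of 14, against 19.48%. All 4 motifs were searched on both strands, and matches of different motifs may overlap. A match of letters describes a sequence and does not show that a factor binds there.

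Libraries were of like depth, with 18363549 to 19306181 expected counts each. The labelled cell types were checked with marker lists, in CPM (counts scaled to library size with TMM factors) summed over a list. Markers counted as higher or lower than DMSO passed an adjusted p of at most 0.05, by the test named below. Of all genes at day 19, 25.1% were higher and 27.3% lower with T3, and 21.0% and 21.9% with T4. At day 7 these shares were 9.43% and 6.54% with T3, and 3.9% and 2.52% with T4. The 10 hepatocyte-like markers, among them AFP, ALB and APOA1, summed to 6645 to 7294 CPM with T4 and 2417 to 3354 CPM with T3 at day 19, against 58242.5 to 63349 CPM with DMSO, and 10 of 10 were lower with either hormone. At day 7 they summed to 3243 to 3289 CPM with T4 and 3082 to 3165 CPM with T3, against 4076 to 4091 CPM with DMSO. The 8 mesenchymal or stellate markers at day 19 summed to 3108 to 3513 CPM with T4 and 2302 to 3162 CPM with T3, against 5875 to 5989 CPM with DMSO (5 and 6 lower, 2 and 2 higher). The 7 intestinal or pancreatic markers summed to 757.9 to 981.5 CPM with T4 and 385 to 466 CPM with T3, against 1977 to 2143 CPM with DMSO, and 7 of 7 were lower with either hormone. The 7 neural markers summed to 217 to 239 CPM with T4 and 267 to 299.8 CPM with T3, against 88.7 to 91.2 CPM with DMSO, with 3 of 5 tested markers higher under either hormone, NEUROG2 at 0 in the T3 and DMSO groups and SOX1 at 0 in the T4 and DMSO groups. The 7 pluripotent markers summed to 174 to 175 CPM with T4 and 168 to 171 CPM with T3 at day 19, against 121 to 123 CPM with DMSO (5 and 3 higher). The 5 endothelial markers at day 19 summed to 102.2 to 124.6 CPM with T4 and 116 to 118 CPM with T3, against 94.6 to 108.1 CPM with DMSO (2 and 3 lower, 1 and 1 higher). At day 7 they summed to 44.2 to 45.1 CPM with T4 and 42.9 to 45.1 CPM with T3, against 74.8 to 75.4 CPM with DMSO, with 4 of 5 lower under either hormone. The 5 blood markers at day 19 summed to 33.7 to 34.8 CPM with T4 and 26.8 to 29.6 CPM with T3, against 90.8 to 95.5 CPM with DMSO, with both tested markers lower under either hormone and HBG1 at 0 in all 3 groups. At day 7 the pluripotent markers summed to 2112 to 2148.5 CPM with T4 and 2467.5 to 2486 CPM with T3, against 1475 to 1487 CPM with DMSO, with 6 of 7 higher under either hormone. These markers moved with the hormone-treated groups, and their part in the results below was not tested. In such bulk samples, fewer cells of a type and less RNA per cell cannot be told apart.

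At day 19 the summed level of the cytosolic enzymes was higher under hormone and that of the mitochondrial enzymes slightly lower. FPKM summed over the 19 cytosolic genes came to 875 and 851 in the T4 libraries and to 1035 and 986 in the T3 libraries, against 581 and 579.8 in the DMSO libraries. Every hormone-treated library lay above both DMSO libraries, and the T3 libraries lay above the T4 libraries. Summed over the 16 mitochondrial genes, FPKM came to 178 and 176 with T4 and to 162 and 169 with T3, against 184 and 185 with DMSO. The ratio of the cytosolic to the mitochondrial sum was 4.87 ± 0.0648 with T4 and 6.11 ± 0.394 with T3, against 3.14 ± 0.0197 with DMSO (SD, n = 2 each). At day 7 this ratio was 3.57 and 3.63 with T4 and 3.61 and 3.64 with T3, against 3.59 and 3.49 with DMSO. At day 7 the T4 libraries overlapped both other groups and T3 lay just above DMSO, while at day 19 all 3 groups stood apart, with T3 highest and DMSO lowest.

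**Figure D1:**
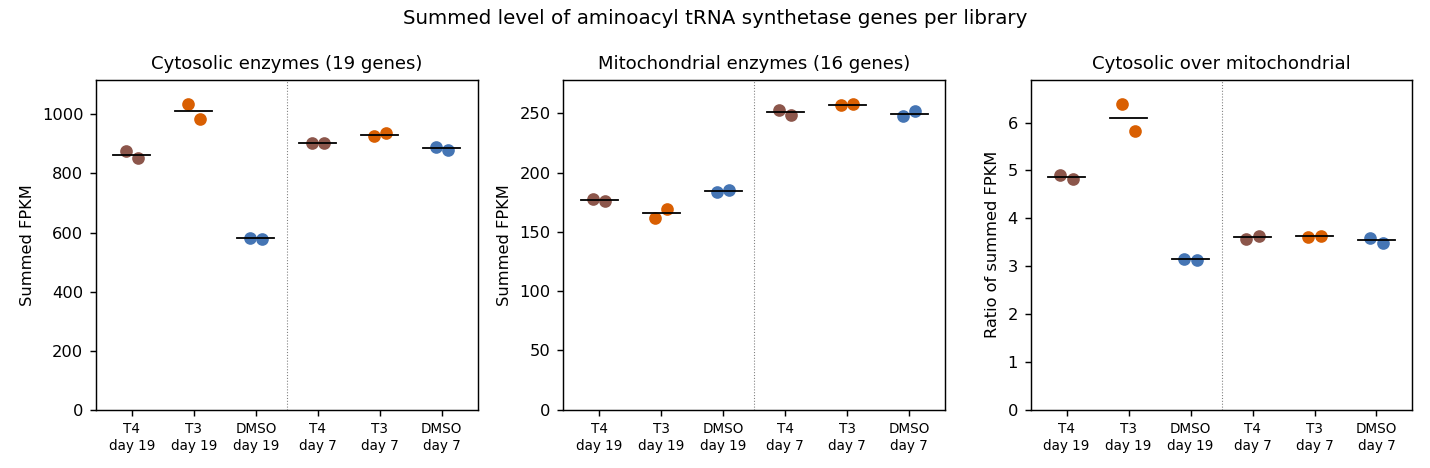
FPKM summed over the 19 cytosolic genes (left), over the 16 mitochondrial genes (middle) and their ratio (right), on the vertical axes from 0, in the 6 groups along the horizontal axis. Each point is a library and each short line the mean of 2. The cytosolic sum is lowest in the DMSO libraries of day 19 (581 and 579.8 FPKM), and the ratio is highest with T3 at day 19 (mean 6.11).

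In the comparison of T3 with DMSO at day 19, 17 of the 19 cytosolic genes were higher and 2 were not called. Calls here and below are at an adjusted p of at most 0.05 in edgeR's quasi-likelihood test with Benjamini-Hochberg adjustment over all 18101 genes tested. The background of this comparison was high, with 52.3% of all genes called, 25.1% higher and 27.3% lower. The median log2 fold change was 0.66 for the cytosolic genes and -0.03 for all genes tested. Of the 17 calls of higher genes, 16 held under every alternative processing tried, the exception being FARSB.

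SARS1, the seryl tRNA synthetase, had the largest increase, with 312.6 and 274.4 CPM in the T3 libraries, against 112.7 and 114.5 CPM in the DMSO libraries (log2 fold change 1.37, SE 0.0662, edgeR adjusted p = 3.64e-10). CARS1, which charges cysteine, had 141.7 and 135.4 CPM with T3, against 54.0 and 59.7 CPM with DMSO (log2 fold change 1.29, SE 0.0676, edgeR adjusted p = 8.71e-10). AARS1, the alanyl enzyme, had 401 and 348 CPM with T3, against 164 and 150.1 CPM with DMSO (log2 fold change 1.25, SE 0.0667, edgeR adjusted p = 9.79e-10). In each of the 3 genes both T3 libraries lay more than 2-fold above both DMSO libraries. TARS1, the threonyl enzyme, had 169 and 148 CPM with T3, against 70.6 and 65.4 CPM with DMSO (log2 fold change 1.22, SE 0.0683). WARS1, the tryptophanyl enzyme, which interferon gamma is known to induce, had 102.7 and 102 CPM with T3, against 46.9 and 47.5 CPM with DMSO (log2 fold change 1.12, SE 0.0535). The groups did not overlap in either gene.

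YARS1 (tyrosine), GARS1 (glycine in both compartments) and MARS1 (methionine) followed, with log2 fold changes of 1.01, 0.97 and 0.89. MARS1 shares 355 exon bases, 5.05% of its exon length, with DDIT3 on the opposite strand, and the strand of counting is not given in the sources used here. EPRS1, a single protein that charges both glutamate and proline, had 195 and 181 CPM with T3, against 117 and 112 CPM with DMSO (log2 fold change 0.72, SE 0.0566). LARS1 (leucine), NARS1 (asparagine), VARS1 (valine), IARS1 (isoleucine) and FARSA (the alpha subunit of the phenylalanyl enzyme) rose by 0.41 to 0.66 on the log2 scale. The smallest increases were those of KARS1 (0.33), HARS1 (histidine, 0.31) and FARSB, the beta subunit of the phenylalanyl enzyme (0.28). FARSB was no longer called without DMSO replicate 1 (adjusted p = 0.148) or without T3 replicate 2 (adjusted p = 0.0991).

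The 2 genes without a call were both members of the complex. QARS1, the glutaminyl enzyme, had 330 and 300 CPM with T3, against 315.5 and 306.4 CPM with DMSO, a log2 difference of 0.02 with a 95% interval of -0.11 to 0.15, and its groups overlapped. RARS1, the arginyl enzyme, had 80.1 and 86.4 CPM with T3, against 91.6 and 87.9 CPM with DMSO (log2 difference -0.11, 95% interval -0.25 to 0.04, adjusted p = 0.198). Of 7 genes of the complex, 5 were higher, with a median log2 fold change of 0.42. All 12 cytosolic genes outside the complex were higher, with a median of 0.99. By catalytic fold, 7 of 9 of class I and 9 of 9 of class II were higher, with medians of 0.66 and 0.58. These divisions of the genes were not tested against each other.

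The 6 cytosolic genes whose promoters hold the ATF4 element, printed above, were all higher with T3 at day 19, with a median log2 fold change of 1.06 and a range of 0.42 (IARS1) to 1.29 (CARS1). Of the 10 cytosolic genes with a promoter entry and no such element, 8 were higher and 2 were not called, with a median of 0.37. SARS1, the gene with the largest increase, is among these 10. YARS2, the mitochondrial gene with an element, was not called (log2 difference -0.10). The difference between these groups of genes was not tested.

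**Figure D2:**
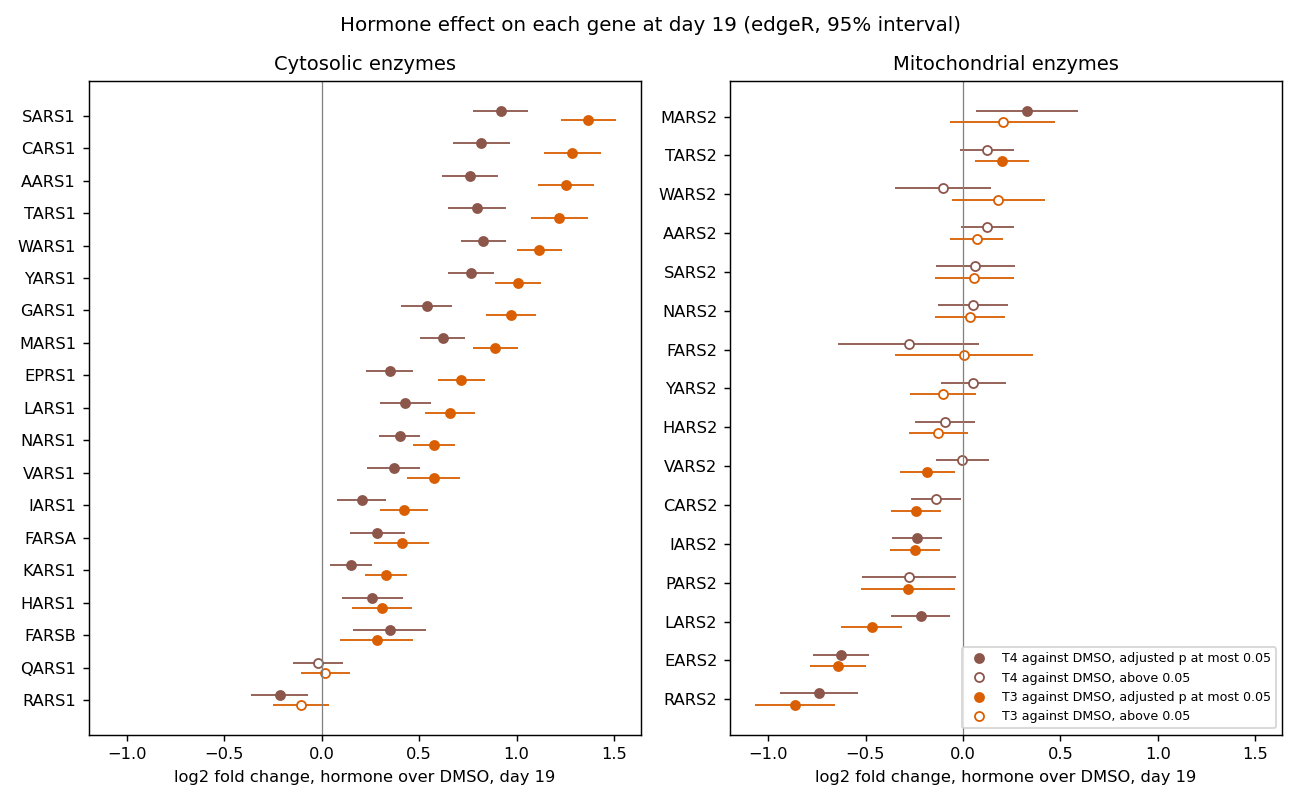
Log2 fold change of hormone over DMSO at day 19 for each gene (horizontal axis, lines are 95% intervals), T4 above T3 in each row, with the 19 cytosolic genes on the left and the 16 mitochondrial genes on the right, ordered by the T3 effect. Filled points passed an adjusted p of 0.05. Most cytosolic genes lie right of 0 with T3 further out than T4, up to 1.37 for SARS1, and the mitochondrial genes reach down to -0.86 for RARS2.

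Among the 16 mitochondrial enzymes, T3 lowered 7, raised 1 and left 8 without a call at day 19, with a median log2 fold change of -0.12. Over all genes 52.3% were called and 27.3% were lower, so 8 calls among 16 genes are about the share over all genes. RARS2, the mitochondrial arginyl enzyme, had 39.9 and 48.3 CPM with T3, against 77.9 and 82.6 CPM with DMSO (log2 fold change -0.86, SE 0.0954, edgeR adjusted p = 2.46e-06). EARS2, the glutamyl enzyme, had 37.9 and 39.2 CPM with T3, against 62.0 and 58.1 CPM with DMSO (log2 fold change -0.64, SE 0.0671, edgeR adjusted p = 1.43e-06). LARS2 (leucine) fell by 0.47 on the log2 scale and IARS2 (isoleucine) by 0.25. These 4 calls held under every alternative tried. The calls of CARS2 (-0.24), PARS2 (-0.28) and VARS2 (-0.18), the cysteinyl, prolyl and valyl enzymes, were lost under at least 1 alternative. CARS2 was not called in the DESeq2 test (adjusted p = 0.0796). Among other settings, PARS2 was not called without T3 replicate 2 (0.238) or either DMSO replicate (0.102 and 0.121), and VARS2 without T3 replicate 1 (0.14) or DMSO replicate 2 (0.119) or with a replicate block (0.0503). TARS2, the threonyl enzyme, was the single higher gene (0.20), and was not called without DMSO replicate 1 (adjusted p = 0.149), without T3 replicate 1 (0.0607) or with day 19 libraries only (0.0517). MARS2, WARS2, AARS2, SARS2, NARS2, FARS2, YARS2 and HARS2 were not called, with log2 differences of -0.13 (HARS2) to 0.20 (MARS2).

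T4 at day 19 moved most of these genes in the same direction as T3, and the 2 comparisons share their DMSO libraries. Of all genes 42.8% were called against DMSO, 21.0% higher and 21.9% lower. Among the cytosolic genes 17 were higher, 1 was lower and 1 was not called, with a median log2 fold change of 0.40, against 0.00 for all genes. SARS1 had 223.5 and 206 CPM with T4, against 112.7 and 114.5 CPM with DMSO (log2 fold change 0.92, SE 0.0662, edgeR adjusted p = 4.84e-08). WARS1 had 84.7 and 82.9 CPM with T4, against 46.9 and 47.5 CPM with DMSO (0.83, SE 0.0539). CARS1 (0.82), TARS1 (0.80), YARS1 (0.77) and AARS1 (0.76) came next. MARS1 had a log2 fold change of 0.62, GARS1 of 0.54, EPRS1 of 0.35 and KARS1 of 0.15. All 12 genes outside the complex were higher (median 0.65), and of the 7 genes of the complex 5 were higher and 1 lower (median 0.21).

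Of the 17 calls of higher genes with T4, 13 held under every alternative tried. Without T4 replicate 1, HARS1 (0.26, adjusted p then 0.131) and KARS1 (0.128) were not called. KARS1 was also not called without DMSO replicate 1 (0.054) or 2 (0.0973), IARS1 (0.21) without DMSO replicate 2 (0.0698) and FARSB (0.35) without DMSO replicate 1 (0.062). RARS1, the 1 lower gene, had 78.6 and 75.9 CPM with T4, against 91.6 and 87.9 CPM with DMSO (log2 fold change -0.22), a call that was lost without DMSO replicate 1 (adjusted p = 0.0905) or T4 replicate 2 (0.078). QARS1 had 320 and 294.5 CPM with T4, against 315.5 and 306.4 CPM with DMSO, a log2 difference of -0.02 with a 95% interval of -0.14 to 0.11.

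Of the mitochondrial enzymes, T4 lowered 4 and raised 1 at day 19, with 11 not called and a median log2 fold change of -0.10. Over all genes 42.8% were called and 21.9% were lower, so calls were no more frequent among these 16 genes than among all genes. RARS2 had 52.8 and 43.3 CPM with T4, against 77.9 and 82.6 CPM with DMSO (log2 fold change -0.74, SE 0.0944, edgeR adjusted p = 1.66e-05). EARS2 had 37.1 and 40.8 CPM with T4, against 62.0 and 58.1 CPM with DMSO (log2 fold change -0.63, SE 0.0668, edgeR adjusted p = 2.87e-06). In both genes the groups did not overlap. IARS2 (-0.23) was not called without T4 replicate 1 (adjusted p = 0.07). LARS2 (-0.22) was not called without DMSO replicate 1 (0.103), T4 replicate 1 (0.053) or T4 replicate 2 (0.0917). MARS2, the methionyl enzyme, was higher (0.33), but with 11.1 and 8.75 CPM in the T4 libraries, against 7.83 and 8 CPM in the DMSO libraries, and was not called without T4 replicate 1 (0.477) or either DMSO replicate (0.1 and 0.126). The number of mitochondrial genes called was 2 without T4 replicate 1 and 3 without DMSO replicate 1.

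**Figure D3:**
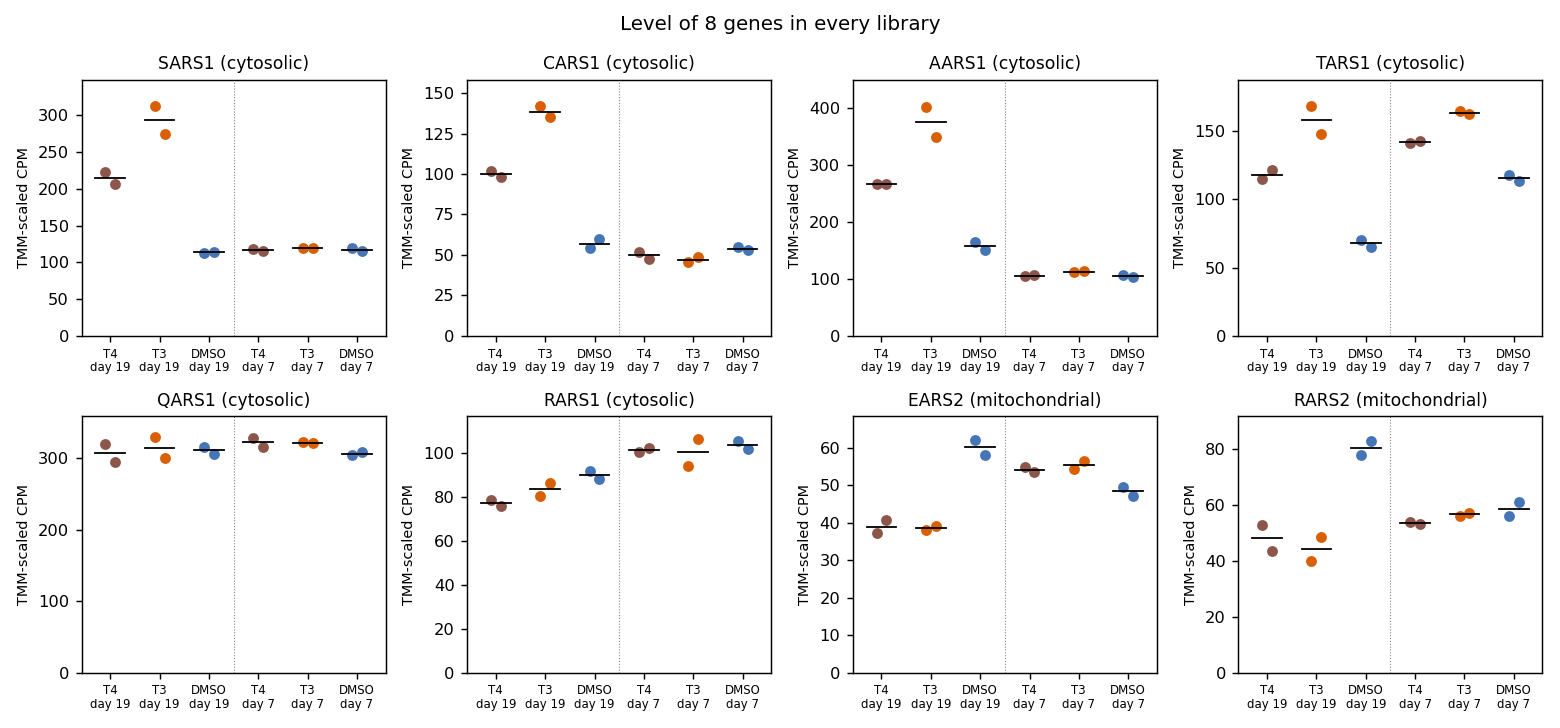
TMM-scaled CPM (vertical axes, from 0) of 8 genes in every library, by group along the horizontal axis. Points are libraries and short lines the means of 2. SARS1, CARS1, AARS1 and TARS1 are above DMSO in both hormone groups of day 19, QARS1 shows no separation there, EARS2 and RARS2 are below DMSO, and RARS1 lies slightly below it, without a call for T3.

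Set side by side for the same amino acid, the log2 fold change of the cytosolic gene was above that of its mitochondrial counterpart in 17 of 17 pairs with T3 at day 19 and in 17 of 17 with T4, with median differences of 0.93 and 0.63. Both FARSA and FARSB were paired with FARS2, and EPRS1 was paired with EARS2 and with PARS2. At day 7 the same count was 9 of 17 with T3 and 7 of 17 with T4. The 2 hormones share their DMSO libraries, so the counts at day 19 are not independent. The gap was widest for cysteine with T3 (CARS1 over CARS2, 1.53) and for glutamate with T4 (EPRS1 over EARS2, 0.97). It was narrowest for phenylalanine with T3 (FARSB over FARS2, 0.28) and for methionine with T4 (MARS1 over MARS2, 0.29). On the FPKM scale, which allows levels of different genes to be compared, the log2 ratio of CARS1 to CARS2 was 0.48 and 0.51 with T4 and 1.12 and 0.996 with T3, against -0.51 and -0.41 with DMSO. For this amino acid the order of the 2 genes was thus opposite in hormone and DMSO libraries of day 19. For EPRS1 over EARS2 the log2 ratio was 1.61 and 1.53 with T4 and 2.03 and 1.87 with T3, against 0.58 and 0.61 with DMSO.

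T4 and T3 were given at the same dose and their libraries come from the same days, and they were compared directly with 1 contrast on each day. At day 19, 15.7% of all genes differed between them (7.42% higher and 8.31% lower with T4), and 14 of the 19 cytosolic genes were lower with T4, while the other 5 were not called. AARS1 had 266.4 and 266.5 CPM with T4, against 401 and 348 CPM with T3 (log2 fold change -0.49, SE 0.065, edgeR adjusted p = 0.000195). CARS1 had 102.1 and 98.4 CPM with T4, against 141.7 and 135.4 CPM with T3 (-0.47, SE 0.0646). SARS1 (-0.45), GARS1 (-0.43), TARS1 (-0.42), EPRS1 (-0.37), WARS1 (-0.29) and MARS1 (-0.27) were also lower, and these 8 calls held under every alternative tried. The other 6 calls, which were NARS1 (-0.18), KARS1 (-0.18), VARS1 (-0.20), IARS1 (-0.22), LARS1 (-0.23) and YARS1 (-0.24), were weaker: the count was 9 without T3 replicate 1 or without T4 replicate 2, and 8 when only libraries of day 19 were fitted. FARSB, QARS1, HARS1, RARS1 and FARSA were not called, with log2 differences of -0.12 to 0.07. Their 95% intervals together ran from -0.26 to 0.25, a range that includes the size of the smaller called effects.

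Among the 16 mitochondrial genes LARS2 alone was called between the hormones at day 19, higher with T4 (36.0 and 34.8 CPM) than with T3 (28.1 and 31.4 CPM), at a log2 fold change of 0.25. This call was absent without T3 replicate 1 (adjusted p = 0.253), T4 replicate 1 (0.146) or T4 replicate 2 (0.0777). The hepatocyte-like markers also differed between the hormones, with 8 of 10 higher with T4 than with T3, against 7.42% of all genes. Their part in the synthetase differences was not tested.

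At day 7 fewer of these genes were called. T3 changed 16.0% of all genes at day 7 (9.43% higher and 6.54% lower), and 5 of 19 cytosolic and 2 of 16 mitochondrial genes were higher. TARS1 had 165 and 162 CPM with T3, against 117.7 and 113.6 CPM with DMSO (log2 fold change 0.50, SE 0.0647, edgeR adjusted p = 0.000124). VARS1 had 133.1 and 128.7 CPM with T3, against 91.8 and 93.7 CPM with DMSO (log2 fold change 0.50, SE 0.0633, edgeR adjusted p = 0.000109). These 2 calls held under every alternative, and both T3 libraries lay above both DMSO libraries. FARSB (0.28), LARS1 (0.20), YARS1 (0.19), NARS2 (0.32) and TARS2 (0.25) were called with all libraries. Each of these calls was lost under at least 1 alternative, among them a library left out. Fewer of all genes were called as well when a library of the 2 groups was left out. When only libraries of day 7 were fitted, 8 cytosolic genes (7 higher and 1 lower) and 7 mitochondrial genes (all higher) were called. Calls over all genes rose as well in that fit, to 5144 (2693 higher), against 2891 (1707 higher) with all libraries. SARS1, AARS1 and CARS1, the genes with the largest increases at day 19, had log2 differences of 0.03, 0.10 and -0.19 and were not called. WARS1 (0.06), MARS1 (0.07), EPRS1 (0.04), QARS1 (0.07), KARS1 (0.12) and GARS1 (0.10) were not called either. The median log2 fold change was 0.07 for the cytosolic and 0.11 for the mitochondrial genes, against 0.01 for all genes.

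T4 at day 7, with 6.42% of all genes called (3.9% higher and 2.52% lower), raised TARS1 and VARS1. TARS1 had 141.1 and 143 CPM with T4, against 117.7 and 113.6 CPM with DMSO (log2 fold change 0.30, edgeR adjusted p = 0.0132). VARS1 had 115.8 and 108.9 CPM with T4, against 91.8 and 93.7 CPM with DMSO (log2 fold change 0.28, edgeR adjusted p = 0.0179). Leaving out any single library of the 2 groups removed both calls, and fewer of all genes were called as well. The count of mitochondrial genes called was 0 in edgeR with all libraries, in DESeq2 and in limma on FPKM, with 7 at an unadjusted p under 0.05. The share of all genes at that unadjusted threshold was not counted, here or for T4 against T3. Such counts are therefore not read as a result about these genes. When only libraries of day 7 were fitted, 4 mitochondrial genes were called (EARS2, LARS2 and IARS2 higher and VARS2 lower). That fit called 3243 of all genes, against 1162 with all libraries. Between T4 and T3 at day 7, 0.365% of all genes were called (0.0387% higher and 0.326% lower with T4). The count of members called was 0 in edgeR with all libraries, in DESeq2 and in limma on FPKM, with 4 cytosolic genes and 1 mitochondrial gene at an unadjusted p under 0.05. Log2 differences ran from -0.26 (MARS2) to 0.12 (WARS2). When only libraries of day 7 were fitted, TARS1, VARS1 and GARS1 were lower with T4. That fit called 397 of all genes between the hormones, against 66 with all libraries.

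The change in the hormone effect between the days was itself tested. For T3, 38.0% of all genes differed (17.1% with a higher and 20.9% with a lower effect at day 19), and the effect at day 19 was above that at day 7 for 14 cytosolic genes. CARS1 had the largest difference (log2 difference of effects 1.48, SE 0.0971), ahead of SARS1 (1.34), AARS1 (1.15) and WARS1 (1.06). For TARS1 it was 0.72, since this gene was already higher at day 7, and for VARS1 it was 0.08 and not called. FARSA, FARSB, QARS1 and RARS1 were not called either, with -0.06 to 0.23. Of the mitochondrial genes, EARS2 (-0.84), RARS2 (-0.81), LARS2 (-0.63) and IARS2 (-0.38) had a lower effect at day 19, and the other 12 were not called. For T4, 27.7% of all genes differed (12.4% higher and 15.3% lower), 12 cytosolic genes had a higher effect at day 19, and the same 4 mitochondrial genes had a lower one, from -0.79 (EARS2) to -0.39 (IARS2). Counting both directions, calls were no more frequent among the 16 mitochondrial genes than among all genes, with either hormone.

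The course from day 7 to day 19 was read next, and here the scaling of the libraries matters. With DMSO, 72.4% of all genes were called between the days (37.6% higher and 34.9% lower at day 19), and 3 of 19 cytosolic genes were higher and 10 lower at day 19. LARS1 had 62.6 and 65.3 CPM at day 19, against 134.6 and 125.7 CPM at day 7 (log2 fold change -1.02, SE 0.0591, edgeR adjusted p = 7.88e-10). FARSB (-1.06), IARS1 (-0.96), TARS1 (-0.77), KARS1 (-0.51), HARS1 (-0.50), WARS1 (-0.44), EPRS1 (-0.42), GARS1 (-0.32) and RARS1 (-0.20) were lower as well. FARSA, SARS1, NARS1, MARS1, QARS1 and CARS1 were not called, with -0.10 to 0.08. AARS1 was the 1 higher cytosolic gene whose call held under every alternative, with 164 and 150.1 CPM at day 19, against 106.4 and 103.8 CPM at day 7 (log2 fold change 0.58, SE 0.068). VARS1 (0.24) and YARS1 (0.16) were higher on TMM-scaled counts and negative, at -0.165 and -0.243, on the FPKM scale. Both were called lower on that scale (limma adjusted p = 0.0202 and 0.000399), so their direction between the days depends on the scaling. Of the mitochondrial genes 7 were lower, led by MARS2 (-1.21), YARS2 (-0.86), FARS2 (-0.71) and WARS2 (-0.56). The 4 called higher were RARS2 (0.46), EARS2 (0.31), CARS2 (0.31) and IARS2 (0.15). In both classes of enzymes, calls in either direction were no more frequent than among all genes. On the FPKM scale EARS2, CARS2 and IARS2 were negative, with IARS2 called lower (limma adjusted p = 0.00293). RARS2 was close to 0 and not called there (0.045, limma adjusted p = 0.713). FPKM moved the median of all genes by -0.37 in this comparison, at a pseudocount of 0.1, and the 10 most abundant genes took 11.7% and 12.07% of the counts in the DMSO libraries of day 19, against 5.48% and 5.54% at day 7.

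Under hormone the cytosolic genes split between the days. With T3, 73.1% of all genes were called (35.2% higher and 37.9% lower), and 10 cytosolic genes were higher and 5 lower at day 19. AARS1 had 401 and 348 CPM at day 19, against 112.7 and 113.2 CPM at day 7 (log2 fold change 1.73, SE 0.0676). CARS1 (1.56), SARS1 (1.29) and YARS1 (0.97) followed, and FARSB (-1.06), LARS1 (-0.56), IARS1 (-0.56) and KARS1 (-0.30) were the lowest. EPRS1 (0.26) was higher on TMM-scaled counts and negative, without a call, on the FPKM scale. HARS1, TARS1, QARS1 and FARSA were not called, with -0.13 to 0.13. With T4, 71.9% of all genes were called (35.5% higher and 36.4% lower), with 9 cytosolic genes higher, led by AARS1 (1.33), and 8 lower, led by FARSB and IARS1 (-0.83 each). The mitochondrial genes were mostly lower at day 19 in both series, 11 with T4 and 12 with T3. CARS2 alone was higher (0.29 with T4 and 0.18 with T3), and on the FPKM scale its value was not called with either hormone and negative with T3. The lowest values of the class were those of FARS2 with T4 (-1.08) and of MARS2 with T3 (-1.30).

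**Figure D4:**
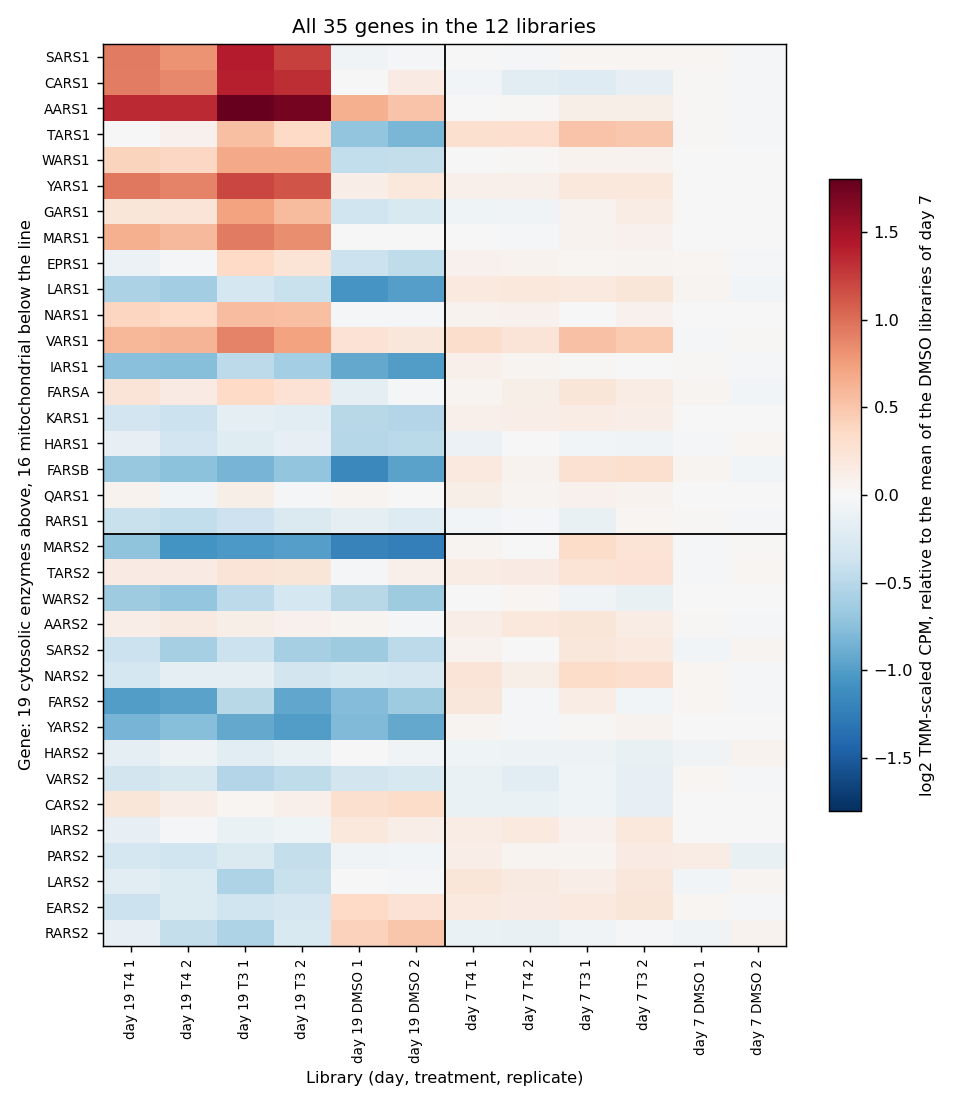
Log2 TMM-scaled CPM of the 35 genes (rows, cytosolic above and mitochondrial below the line, each ordered by the T3 effect at day 19) in the 12 libraries (columns), relative to the mean of the DMSO libraries of day 7. Red is higher and blue lower, and the scale ends at 1.8. SARS1, CARS1, AARS1 and YARS1 are reddest in the T3 libraries of day 19, and FARSB, MARS2 and YARS2 are blue in all 6 libraries of day 19.

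Compared per length of transcript, QARS1 had the highest level of all cytosolic genes at day 7 and in DMSO at day 19 (mean 93.1 FPKM), and SARS1 took that place in hormone-treated cells of day 19, with 100.9 FPKM under T4 and 132.9 FPKM under T3. SARS1 had 104.8 and 97.1 FPKM with T4, against 104.4 and 96.9 FPKM for QARS1 in the same libraries, so these 2 genes did not differ beyond their spread there. FARSB was the lowest cytosolic gene in the 3 groups of day 19, at 7.25 FPKM with DMSO. IARS2 had the highest level of the mitochondrial genes in all 6 groups, from 26.2 FPKM with T3 at day 19 to 38.2 FPKM with T4 at day 7. The median mitochondrial gene had 9.23 FPKM with T4 and 8.81 FPKM with T3 at day 19, against 9.04 FPKM with DMSO.

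The transcripts of KARS1 differ in whether they encode the mitochondrial form. The share of NM_001130089, which encodes that form, was 24.0% with T4 and 26.8% with T3 at day 19, against 25.5% with DMSO, and 20.9% to 23.5% at day 7. The rest came from NM_005548, which encodes the cytosolic form. Larger shifts of at least 20 percentage points between groups were found in CARS1, IARS1, LARS1, TARS1, WARS1, FARS2, RARS2 and VARS2. In CARS1, NM_001751 held 47.1% and 42.6% in the T4 libraries and 54.8% and 34.9% in the T3 libraries of day 19, against 42.0% and 39.2% in the DMSO libraries. At day 7 the means of the groups were 55.7% to 68.9%. In LARS1, NM_020117 held 74.4% and 49.4% in the T4 libraries of day 19 and 53.0% in T3 replicate 2, against all of the FPKM of this gene in T3 replicate 1 and in both DMSO libraries. In both genes the T3 libraries of day 19 lay further apart than the means of T3 and DMSO. These shares rest on an estimated division of reads among similar transcripts and carry no test.

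The other genes of the pathway were read from lists. At day 19 the shares of all genes to set beside their counts were 25.1% higher and 27.3% lower with T3, and 21.0% higher and 21.9% lower with T4. Of 17 partners of aminoacylation, T3 at day 19 raised 6 and lowered 5, with lower genes at about the share of all genes. AIMP2 had 22.5 and 23.3 CPM with T3, against 13.7 and 14.5 CPM with DMSO (log2 fold change 0.70, SE 0.0915). EEF1E1 was also higher (0.72), while the third scaffold gene, AIMP1, was not called (0.01). The elongation factor EEF1A1, which carries charged tRNA to the ribosome, was lower (-0.34). Of the mitochondrial amidotransferase that makes glutaminyl tRNA, which stands in for a mitochondrial glutaminyl enzyme, GATB was lower (-0.33) and GATC (0.06) and QRSL1 (0.21) were not called. With T4, 5 partners were higher and 2 lower, 7 of 17 against 42.8% of all genes called, with AIMP2 at 0.63, EEF1E1 at 0.88, AIMP1 at -0.11 (not called) and GATB at -0.06 (not called).

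Of 25 genes of the ATF4 amino acid response, T3 at day 19 raised 18 and lowered 5, with a median log2 fold change of 1.02. ATF4 itself had 417 and 397 CPM with T3, against 189.8 and 203.5 CPM with DMSO (log2 fold change 1.05). ASNS, the asparagine synthetase, had 80.2 and 74.2 CPM with T3, against 28.5 and 33.0 CPM with DMSO (1.33). TRIB3 (1.97), DDIT3 (1.89) and CHAC1 (2.45), stress genes downstream of ATF4, were higher, and NUPR1 had the largest change (5.36). The 5 lower genes were PSPH, ALDH18A1, PYCR1, PCK2 and ATF5, of which PSPH makes serine and ALDH18A1 and PYCR1 act in proline synthesis. With T4 also 18 were higher and 5 lower (median 0.71), with ATF4 at 0.82, ASNS at 1.09, TRIB3 at 1.22 and DDIT3 at 1.09. Between T4 and T3 at day 19, 14 were lower with T4 and 2 higher, against 8.31% and 7.42% of all genes. At day 7, T3 raised 2 and lowered 2 of the 25, which is about the share of all genes called (16.0%). T4 at day 7 raised 1 and lowered 4, against 3.9% and 2.52% of all genes. ATF4, ASNS, TRIB3 and DDIT3 were not called with either hormone at day 7.

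Of 15 genes of MYC and ribosome biogenesis, T3 at day 19 raised 14 and lowered 1, ODC1 (-2.19), with a median of 0.54. MYCN averaged 118.1 CPM with T3, against 19.6 CPM with DMSO (log2 fold change 2.59), and MYC was higher as well (1.82). With T4, 12 were higher and 1 lower, with MYCN at 1.85 and MYC at 1.26. Of the 11 tested interferon gamma response genes, the setting in which WARS1 is best known, 7 were higher with T3 at day 19. TAP1 (1.76) and IRF1 (1.10) were among the higher genes, and the other 4 of the list were not called. With T4 at day 19, 5 were higher, 1 was lower and 5 were not called. Of 104 tested genes on the mitochondrial translation list, T3 at day 19 raised 19 and lowered 32 (median -0.06), and T4 raised 21 and lowered 21 (median -0.02). Both totals of calls are near the shares of all genes called, 52.3% with T3 and 42.8% with T4. Ribosomal genes entered this list by the start of their symbol, so it also holds antisense and pseudogene transcripts, such as MRPL20-AS1 and MRPS31P5. MRPS25 (-1.10) and MRPL18 (-1.18), proteins of the mitochondrial ribosome, were lower with T3, and LRPPRC (0.50), which stabilises mitochondrial messages, was higher. Of 12 proliferation genes, T4 at day 19 raised 5 and lowered 3 (median 0.00) and T3 raised 3 and lowered 6 (median -0.25). Between T4 and T3, 6 of them were higher and 1 lower with T4, against 7.42% and 8.31% of all genes. At day 7, T4 raised 9 and T3 raised 11 of these 12, against 3.9% and 9.43% of all genes, and T3 raised MYC (0.98). How these lists relate to the synthetase genes was not tested.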

How the data were processed

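The submitters' processing notes name HISAT, Bowtie2, RSEM and the build hg38, and their roles and versions are not given in the sources used here. Per library the deposited tables hold, for each RefSeq transcript, an expected count (reads divided among transcripts, not normalised) and an FPKM value, which the authors normalised for length and depth, and list only transcripts of at least 0.01 FPKM. Expected counts were summed per gene by Entrez number and rounded (23801 of 23922 genes matched a RefSeq symbol). edgeR 4.0.16 in R 4.3.3 fitted all 12 libraries with 6 group means, TMM scaling and filterByExpr (18101 genes), by two-sided quasi-likelihood tests with Benjamini-Hochberg adjustment over all genes. Levels are TMM-scaled CPM, and FPKM served for levels across genes. The common biological coefficient of variation was 5.42%. Replicates differed by more than sampling noise (chi-square per gene 1.59 to 2.10 at day 7 and 4.95 to 8.62 at day 19), while the fit has 1 estimate of spread per gene over both days. Such a shared estimate tends to be too small for day 19 and too large for day 7, so numbers of calls on the 2 days are not strictly comparable. Alternatives were DESeq2 1.42.0 (size factors, test), no filter, a replicate block, libraries of 1 day, each library left out, and limma 3.58.1 on log2(FPKM + 0.1) and log2(FPKM + 1). Counting error follows from 18363549 to 19306181 counts per library.

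The members and gene lists were chosen with earlier results of these data known. A further 2 genes that the rule finds are not reported here, and no sum or count of synthetase genes includes them. The text names, per comparison and class, up to 4 called genes at each end and members outside the rule of their class, plus fixed genes (KARS1, GARS1, WARS1, MARS1, EPRS1, QARS1 and, from other lists, ATF4, ASNS, TRIB3, DDIT3, MYC, MYCN, AIMP1, AIMP2, EEF1E1, QRSL1, GATB and GATC). Other genes named were chosen after their values were seen. In GENCODE 29, exons of 16 members overlap another gene on the opposite strand, by at most 11.7% of their bases (HARS2), and SARS2 and VARS2 share 46.18% and 21.99% with a gene on the same strand, so their counts are less certain.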

Additional observations from a re-analysis of the deposited data

Results flagged for a closer look

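The effect of a hormone differed between day 19 and day 7, by a test of the difference itself (edgeR's quasi-likelihood test of the interaction, Benjamini-Hochberg adjusted), in 14 cytosolic and 4 mitochondrial genes for T3 and in 12 and 4 for T4. Over all genes the effect differed in 38.0% for T3 and 27.7% for T4, so calls were no more frequent among the 16 mitochondrial genes than among all genes. Values follow for the genes that the naming rule picks. For T3 the log2 difference of effects, day 19 minus day 7, was 1.479 for CARS1, 1.338 for SARS1, 1.15 for AARS1, 1.056 for WARS1, 0.869 for GARS1, 0.822 for MARS1 and 0.672 for EPRS1. It came to 0.464 for LARS1, 0.404 for IARS1, 0.369 for HARS1 and 0.209 for KARS1. It was -0.836 for EARS2, -0.814 for RARS2, -0.63 for LARS2 and -0.38 for IARS2. For T4 it was 0.933 for CARS1, 0.931 for SARS1, 0.822 for WARS1, 0.751 for AARS1, 0.636 for MARS1 and 0.602 for GARS1. It came to 0.324 for NARS1, 0.315 for HARS1, 0.281 for EPRS1 and 0.251 for LARS1. It was -0.785 for EARS2, -0.609 for RARS2, -0.412 for LARS2 and -0.387 for IARS2. Of all these calls, that of KARS1 for T3 and those of EPRS1, HARS1, LARS1, LARS2 and IARS2 for T4 were lost under at least 1 alternative.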

How the results depend on the processing

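At day 19 the numbers of cytosolic genes called against DMSO stayed within 1.5 times under every alternative, at 16 to 17 for T3 and 15 to 17 for T4 when a library was left out, and no called member changed sign in a hormone comparison. Mitochondrial calls with a library left out were 6 to 7 (T3) and 2 to 4 (T4), and with libraries of the same day, as with DESeq2, 5 (T3) and 3 (T4). T4 against T3 at day 19 gave 9 to 14 cytosolic calls with a library left out and 8 with libraries of the same day only. Its mitochondrial count was 0 to 1 with a library left out, 0 with libraries of the same day and with DESeq2, and 3 on either FPKM scale. At day 7, T3 gave 8 cytosolic and 7 mitochondrial calls with libraries of the same day, 2 and 0 to 1 with a library left out, 2 and 1 with DESeq2, and 1 mitochondrial call on either FPKM scale. T4 at day 7 gave 4 mitochondrial calls with libraries of the same day and 0 cytosolic calls with a library left out, and T4 against T3 gave 3 cytosolic calls with libraries of the same day. Calls over all genes moved too. With libraries of day 7 only they were 5144 for T3, 3243 for T4 and 397 for T4 against T3. With all libraries they were 2891, 1162 and 66. For either hormone against DMSO at day 7, fewer of all genes were called with a library left out. The cause of these changes was not tested.

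Between the days, the FPKM scale (pseudocounts 0.1 and 1) reversed, in DMSO, EARS2 (-0.097, -0.091), IARS2 (-0.248, -0.241), VARS1 (-0.165, -0.158), CARS2 (-0.096, -0.092) and YARS1 (-0.243, -0.234), and, in T3, EPRS1 (-0.034, -0.033) and CARS2 (-0.108, -0.104). Of these, IARS2, VARS1 and YARS1 were called lower in DMSO on that scale, and the others were not called. The median of all genes moved on the FPKM scale by -0.374 in DMSO, -0.269 in T3 and -0.224 in T4 (pseudocount 0.1), and by 0.123 for T4 against DMSO at day 19.

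Folds of summed FPKM moved on TMM-scaled CPM. At day 19 they were 1.65 in place of 1.74 (T3, cytosolic), 0.844 for 0.897 (T3, mitochondrial), 1.36 for 1.49 (T4, cytosolic) and 0.876 for 0.961 (T4, mitochondrial). At day 7 they were 1.09 for 1.05, 1.07 for 1.03 and 1.05 for 1.02 in the same order, and 1.04 for T4 (mitochondrial). With coding (NM) transcripts only, they were 0.869 for T3 (mitochondrial, day 19), 1.05 for T3 (mitochondrial, day 7), 1.04 for T4 (cytosolic, day 7) and 0.96 for T4 against T3 (mitochondrial, day 7).

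Between groups, the differences of replicate 1 from replicate 2 correlated at -0.242 to 0.318. With 2 libraries a group, this check cannot decide whether replicate numbers pair the libraries. With a replicate block the cytosolic counts at day 19 were 17 for T3, 18 for T4 and 14 for T4 against T3, and 5 for T3 at day 7. With 2 libraries a group, a left-out library leaves 1, which is assumed to vary like the other groups.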
